A study of Mus musculus with 9 samples.

Results

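Cytosolic ribosomal proteins build the ribosomes that translate nuclear-encoded messages, and their transcripts were followed here in cultured microglia of the mouse, macrophages that live in the brain. The genes were chosen by symbol: all names that open with Rpl or Rps and a number, without the Rps6k kinases and without names that carry the pseudogene mark. This gave 84 of 24411 gene rows, 50 of the large subunit (Rpl) and 34 of the small subunit (Rps). Among them were 2 genes that are not structural parts of the mature ribosome, the assembly factor Rpl7l1 and Rps19bp1, and several paralogs such as Rpl22l1, Rpl36al, Rps27l and Rps4l. Microglia were shaken from 2-week-old mixed glial cultures made from whole brains of 3-day-old ICR mouse pups, plated for 24 h and treated for 4 h. Of 9 libraries, 3 came from cells given 1 µM R848 (resiquimod, a synthetic ligand that activates TLR7 in endosomes), 3 from cells given 100 U/ml recombinant mouse IFN-α, and 3 from cells given both at those doses, called the combined group below. The design text names an untreated group, not analysed here, so each value is set against another treatment. The labels name no transgene or deletion, give no sex, and do not say whether replicates came from separate cultures, so the p-values rest on spread among these libraries, and that spread may be technical.

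Each eukaryotic ribosome holds a single copy of most of these proteins, so their genes are usually expressed at matched levels. Their messages belong to the 5′ TOP class, which begin with a C followed by a tract of pyrimidines. Through this tract the mTORC1 pathway and its effector LARP1 adjust translation of the messages, often with little change in their amount. In macrophages, Toll-like receptor ligands and interferons both act on translation, the latter also through the kinase PKR.

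Start sites are shown first, because the tract is the feature that marks the class. RefSeq start-site sequences (GRCm38.p6) matched 64 of the 84 genes by symbol. The lines below give the 15 bases before and the first 15 bases after a start, 5′ to 3′ on the sense strand, for genes to which the results return. Capitals mark, as far as the window shows it, a run of at least 8 bases made of C and T that opens with C and begins within 20 bases of the start.
Rps6 (chr4:86857353-86857382, minus strand): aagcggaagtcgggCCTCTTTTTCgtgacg
Rps24 (chr14:24490663-24490692, plus strand): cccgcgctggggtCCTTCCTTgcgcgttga
Rpl13a (chr7:45128731-45128760, minus strand): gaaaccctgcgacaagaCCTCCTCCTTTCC
Rpl27a (chr7:109519180-109519209, plus strand): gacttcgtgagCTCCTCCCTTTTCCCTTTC
Rpl18 (chr7:45718056-45718085, plus strand): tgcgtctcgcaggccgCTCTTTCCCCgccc
Rpl24 (chr16:55966260-55966289, plus strand): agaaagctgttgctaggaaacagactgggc
Rps2 (chr17:24720048-24720077, plus strand): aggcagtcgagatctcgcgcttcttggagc
Rpl7l1 (chr17:46782642-46782671, minus strand): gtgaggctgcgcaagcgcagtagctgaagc
Such a run, searched on the sense strand alone, was found for 30 of the 64 genes (46.9%) and for 15.4% of the 27025 genes in the same table. Runs on either side of the start were counted, so some end before it, as in Rpl4, and some begin well after it, as in Rpl11. These shares are therefore not shares of 5′ TOP messages. Rps6, Rps24, Rpl13a, Rpl27a and Rpl18 carried such a run. Rps24 has 2 start sites in that table, and the other, which is not printed, had no such run. In Rpl24, Rps2 and Rpl7l1 these letters were not in the window searched, which says nothing about how their messages are translated.

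Of the 84 genes, 75 had enough counts to be tested, 43 of the large and 32 of the small subunit. Rpl26, Rpl30 and Rps27rt were at 0 in all 9 libraries, and Rpl34 (0 to 3 counts per library), Rps27 (2 to 5), Rpl37rt (1 to 6), Rpl39l (0 to 5), Rpl3l and Rpl10l (0 to 1 each) were at or near the floor of 3 counts. Rpl26, Rpl30, Rpl34 and Rps27 encode core proteins of the ribosome. STAR leaves reads with several mapping places out of its gene counts, and ribosomal protein genes have many processed copies. The following coding stretches of 101 bases, the length of 1 read, occur exactly in other annotated genes of GENCODE release 21. Rpl30 has its stretch in 7 other genes and Rps27 in 2.
Rpl30: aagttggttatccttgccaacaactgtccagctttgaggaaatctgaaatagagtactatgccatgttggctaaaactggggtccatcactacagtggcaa
Rps27: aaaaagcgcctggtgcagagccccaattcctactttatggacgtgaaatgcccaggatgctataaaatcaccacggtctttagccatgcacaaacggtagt
The share of a gene's coding stretches found in no other gene did not by itself separate the uncounted genes. It was 39.2% for Rpl30, 53.8% for Rpl34 and 0% for Rps27, but also 0% for the well counted Rpl24 and Rps6. Many genes named below share coding stretches with other genes, also where this is not repeated. The part of copies in the missing counts was not tested.

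Across the 74 tested genes with an annotated message length, levels per kilobase of messenger RNA spanned a wide range. They are in CPM (normalised read counts per library, scaled with TMM factors) per kilobase. Each length is that of 1 annotated transcript per gene, and which form these cells make was not tested. Rps20, for example, has 3706 bases for a coding region of 357, so part of the range may come from this choice. Rpl41, which encodes the smallest ribosomal protein, was highest at 859.6 CPM per kilobase under R848, 906 under IFN-α and 892 under both. Rps29 followed, at 771 under R848 and 756 under both, and then Rps12 at 743, 732 and 664. The lowest levels per kilobase belonged to Rps15a (15.6, 12.6 and 13.8), Rps19bp1 (22.9, 22.3 and 17.5) and Rpl29 (39.7, 35.98 and 27.1). Rps15a and Rpl29 are core proteins whose genes share 5 and 27 other annotated copies, so their levels are uncertain. At the top, Rps29 and Rps12 have no coding stretch of read length that is their own, so their levels are uncertain too. The coding region of Rpl41, 75 bases, is shorter than 1 read, so its copies could not be assessed this way. The first 3 and the last 3 genes of this order were the same in each group. Rps4l has no length here and so no place in the order, and it was the lowest tested gene by CPM alone in the R848 group (7.07 ± 1.19, SD, n = 3).

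The genes together held a smaller share of all gene counts in the combined group. Without the ribosomal RNA precursor Rn45s, which held 13.35% to 26.11% of gene counts per library, the share was 2.32%, 2.35% and 2.26% in the R848 libraries and 2.16%, 2.15% and 2.31% in the IFN-α libraries. In the combined libraries it was 1.68%, 1.67% and 1.696%. The combined libraries lay below all others without overlap, with group means of 2.31 ± 0.044% (SD, n = 3) for R848, 2.20 ± 0.090% for IFN-α and 1.68 ± 0.012% for both. In an exact two-sided permutation test of 3 libraries against 3, the combined group had p = 0.1 against each single agent, the smallest value this design allows, and R848 had p = 0.2 against IFN-α. These are 3 of 9 such tests of the share, the mean level and the subunit ratio, and none can pass a correction over them. Bulk RNA cannot tell fewer cells of a type from less RNA per cell. With library totals alone as the scale, the median log2 fold change of the combined group against R848 was -0.47 for the ribosomal proteins and -0.42 for all 11002 tested genes.

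After TMM scaling, which sets each library against the bulk of its genes, the groups lay closer. The mean log2 CPM of the 75 genes was 7.48, 7.48 and 7.42 in the R848 libraries, 7.44, 7.36 and 7.48 in the IFN-α libraries, and 7.35, 7.35 and 7.37 in the combined libraries. The combined libraries lay below the R848 libraries by 0.10 on average (exact permutation p = 0.1) and overlapped the IFN-α libraries (p = 0.2). The Rpl to Rps count ratios were 1.445 ± 0.041 with R848, 1.39 ± 0.014 with IFN-α and 1.41 ± 0.029 with both, and their ranges overlapped in each comparison (exact permutation p from 0.2 to 0.5, in a design whose smallest p is 0.1).

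**Figure D1:**
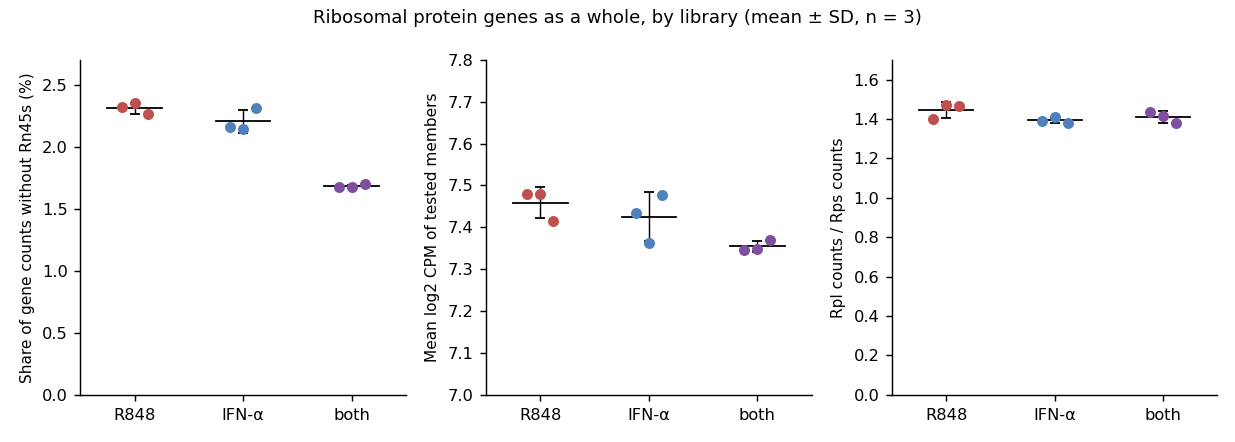
Points are libraries and bars the mean ± SD (n = 3) for the share of gene counts held by the 84 genes (left, in %), the mean log2 CPM of the 75 tested genes (middle, axis from 7 to 7.8) and the ratio of Rpl to Rps counts (right); "both" is the combined group. The share sits at 1.67% to 1.696% in the combined libraries and at 2.15% or above in all others. After scaling, the group means differ by at most 0.104 on the log2 scale, and the ratio overlaps.

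The individual genes moved little in a setting where a large part of the transcriptome moved. A gene is called changed below where edgeR's quasi-likelihood test gave a Benjamini-Hochberg adjusted p under 0.05 over all 11002 genes. Across the 3 groups, 8 of the 75 genes passed (10.7%), beside 50.3% of all tested genes. Over the pairwise comparisons 14 genes passed at least once and 61 never did. The shares of all genes called in each comparison are given below. In the comparison of R848 with IFN-α the median standard error of a log2 fold change was 0.094 among ribosomal protein genes and 0.189 among all genes. There, 71 of 75 genes had a 95% interval wholly inside a 1.5-fold change, beside 27.8% of all genes. The figures were 70 of 75 beside 29.5% for the combined group against R848, and 70 of 75 beside 30.5% for the combined group against IFN-α. In each comparison 74 of 75 intervals lay inside a 2-fold change.

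**Figure D2:**
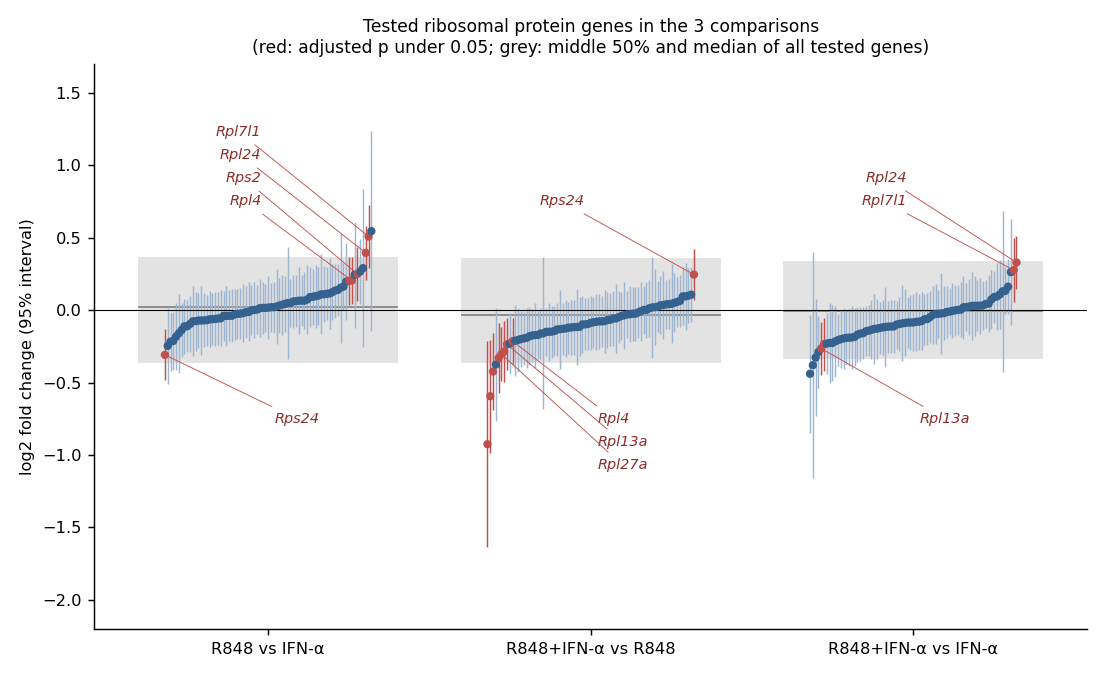
Each point is the log2 fold change of 1 of the 75 tested ribosomal protein genes, ordered by value within each comparison, with its 95% interval; red marks adjusted p under 0.05, and the grey band and line give the middle 50% and the median of all 11002 tested genes. Names mark the red genes that are also plotted by library. The 6, 9 and 4 genes in red differ by at most 0.93 on the log2 scale, and most points lie inside the grey band.

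R848 against IFN-α, the comparison of the single agents, called 5 ribosomal protein genes higher and 1 lower of 75 (8%), beside 37.4% of all genes (18.4% higher, 19.0% lower). The median log2 fold change was 0.017 for the ribosomal proteins and 0.024 for all genes. On the large subunit, Rpl24, whose product sits at the face that joins the subunits, stood at 274, 264 and 239 CPM in the R848 libraries and 196, 185 and 209 in the IFN-α libraries. The groups did not overlap, and the log2 fold change was 0.40 ± 0.090 (SE, adjusted p = 0.000695). This call held under each of the 20 alternative settings, with adjusted p from 0.000144 to 0.0104. The gene lies at chr16:55966275-55971435, plus strand (GRCm38), and each of its 101-base coding stretches also occurs in 1 or more of 4 other annotated genes. Reads with several mapping places are left out, so its count may be incomplete.

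Rpl4, which lines the exit tunnel of the nascent chain, stood at 727, 768 and 764 CPM under R848 and 656, 639.9 and 664 under IFN-α, without overlap, for a log2 fold change of 0.20 ± 0.079 (adjusted p = 0.0422). Rpl19, an RNA-binding protein of the large subunit, was at 446 ± 11.7 and 387 ± 16.97 CPM (SD, n = 3) with 0.20 ± 0.081 (adjusted p = 0.0486). Rpl4 missed the threshold in 14 of 20 alternative settings and Rpl19 in 16 (adjusted p up to 0.138 and 0.2005). Both missed it without R848 replicate 2 or 3, without any 1 IFN-α library and without combined replicate 3, and Rpl19 also without combined replicate 2.

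On the small subunit, Rps24, one of the proteins mutated in Diamond-Blackfan anaemia, was the lower gene. It stood at 429, 429 and 428 CPM in the R848 libraries, which were nearly identical, and at 518, 516 and 560 in the IFN-α libraries. The log2 fold change was -0.31 ± 0.086 (adjusted p = 0.004604), and the call was lost in 1 of 20 alternatives, library totals alone (adjusted p = 0.173; range 0.000666 to 0.173). Rps24 lies at chr14:24487125-24496959, plus strand, and 50.8% of its coding stretches occur in no other annotated gene. Rps2, a protein near the entry of the messenger RNA channel, moved the other way, from 221, 242 and 228 CPM under IFN-α to 291, 283 and 248 under R848. Its log2 fold change was 0.25 ± 0.092 (adjusted p = 0.0322), and 9 of 20 alternatives lost it, among them leaving out R848 replicate 1 or 2 or IFN-α replicate 1 or 3 (adjusted p up to 0.125). Rps2 shares coding stretches with 35 other annotated genes, so its count is uncertain.

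The assembly factor Rpl7l1 had the largest change among the called genes of this comparison. Its product acts in the nucleolus on the immature large subunit, and its symbol brought it into the set. It stood at 109, 125 and 129 CPM under R848, at 76.3, 89.8 and 88.4 under IFN-α and at 111, 96.7 and 101 under both. R848 exceeded IFN-α by 0.51 ± 0.11 (adjusted p = 0.000243), a call kept in all 20 alternatives with adjusted p from 2.92e-06 to 0.00449. The gene lies at chr17:46773907-46782672, minus strand, and 96.4% of its coding stretches are its own. Without the paralogs and the 2 non-structural matches, 4 of 69 genes were higher and 1 lower. Of the 5 higher genes, 2 were called without R848 replicate 2, IFN-α replicate 1 or IFN-α replicate 3, and 3 without IFN-α replicate 2 or combined replicate 3. The count of lower genes was 2 without R848 replicate 1 or IFN-α replicate 2, and 3 without R848 replicate 2.

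**Figure D3:**
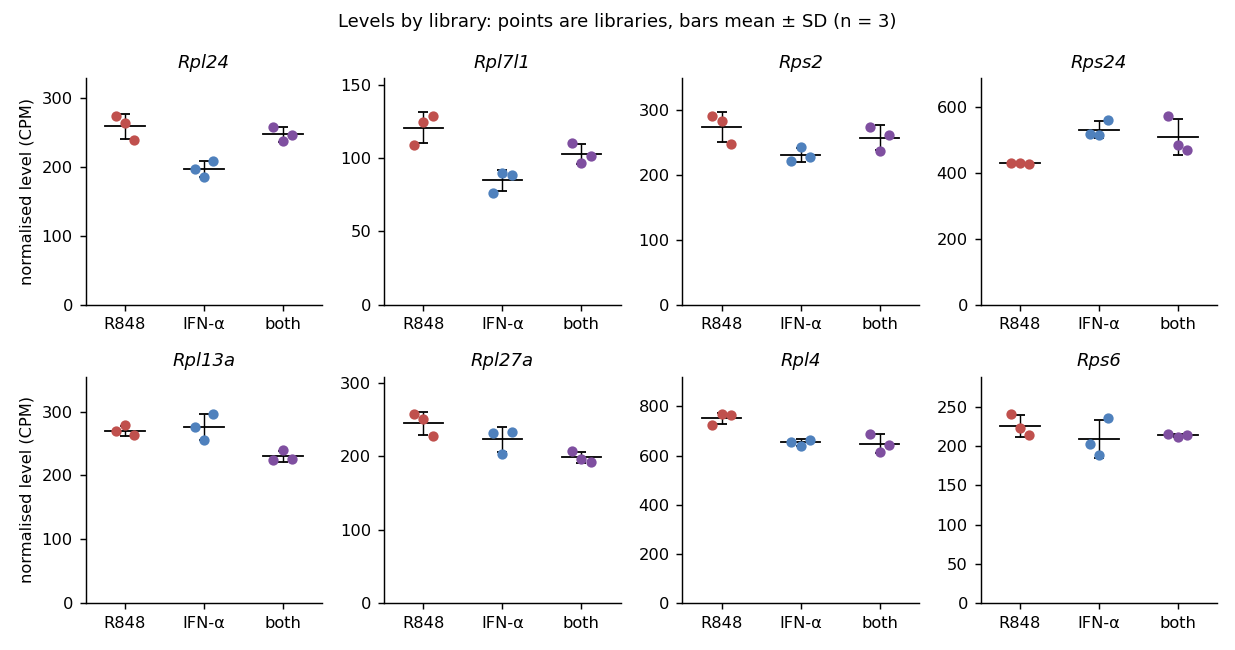
Normalised levels (CPM, axes from 0) of 8 ribosomal protein genes, with a point per library and bars for the mean ± SD (n = 3); "both" is the combined group. Rpl24 and Rpl7l1 sit lowest in the IFN-α libraries, Rps24 lowest in the R848 libraries and Rpl13a lowest in the combined libraries, while the groups of Rps6 overlap.

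Adding IFN-α to R848 was read from the combined group against R848. Of 75 genes, 1 was higher and 8 were lower (12%), beside 35.9% of all genes (19.2% higher, 16.7% lower). The median was -0.088 on the log2 scale for the ribosomal proteins and -0.033 for all genes, and 56 of 75 values were below 0. On the large subunit, Rpl27a stood at 207, 196 and 192 CPM in the combined libraries and 257, 250.3 and 227 in the R848 libraries. These did not overlap, the log2 fold change was -0.30 ± 0.091 (adjusted p = 0.00938), and the call held in 18 of 20 alternatives, not when scaled to the ribosomal proteins and not without combined replicate 3 (adjusted p up to 0.0823). Scaling to the ribosomal proteins brings their own median change to 0.0054. The loss of a lower call under that scale, here and for the genes below, is thus partly built in. Rpl29, a protein that mice can lack and survive, stood at 17.9, 16.8 and 12.7 CPM under both agents and 25.8, 21.2 and 22.5 under R848. Its change was -0.59 ± 0.19 (adjusted p = 0.01495), lost with DESeq2 and without combined replicate 3, the library with its lowest value (adjusted p up to 0.165).

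Rpl36al, a paralog of Rpl36a, fell from 66.6, 57.9 and 51.8 CPM under R848 to 38.1, 44.9 and 47.5 under both, a change of -0.42 ± 0.13 (adjusted p = 0.0116). It was lost when scaled to the ribosomal proteins and without R848 replicate 1 or combined replicate 1 (adjusted p up to 0.0764). Rpl18 (-0.29 ± 0.10, adjusted p = 0.0298), Rpl13a (-0.24 ± 0.087, adjusted p = 0.0352) and Rpl4 (-0.21 ± 0.079, adjusted p = 0.03396) were also lower, and lost the call in 6, 7 and 8 of 20 alternatives. Each of the 3 lost it without R848 replicate 2 and without combined replicate 3, Rpl18 also without R848 replicate 1 or combined replicate 2, Rpl13a without combined replicate 1, and Rpl4 without R848 replicate 3, IFN-α replicate 2 or combined replicate 2.

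On the small subunit, 1 gene was higher and 2 were lower. The paralog Rps4l, close to Rps4x and named for that likeness, was measured near the detection limit, at 4.11, 5.61 and 2.41 against 7.81, 5.695 and 7.701 CPM. Its change of -0.93 ± 0.35 (adjusted p = 0.0374) was lost in 6 of 19 alternatives, among them the omission of R848 replicate 1 or 3 or combined replicate 1 or 3. Rps24 was the gene that rose, to 572, 484 and 469.9 CPM, with the groups apart and a change of 0.25 ± 0.086 (adjusted p = 0.0259). This call held in 14 of 20 alternatives (adjusted p up to 0.369). It was lost without R848 replicate 2 or 3 or combined replicate 1, the gene's highest library. Upper-quartile factors and the fit of only the 2 groups compared also lost it, and under library totals alone the sign turned (-0.14). Rps24 and Rpl4 were also called, with the opposite sign, for R848 against IFN-α, which uses the same R848 libraries.

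How many genes were called lower here depended on the scale. TMM and RLE factors gave 8, upper-quartile factors gave 36, library totals alone gave 67, and scaling to the ribosomal proteins themselves gave 1. The last scale is set on these same genes, so its low count is partly built in. Of all 11002 genes, TMM factors called 1835 lower, RLE factors 1755 and upper-quartile factors 2861. Library totals alone called 4984 of them lower, and the scale of the ribosomal proteins 1287. These scales moved the median of all genes between -0.42 and 0.058. The ribosomal protein median minus that of all genes was -0.055, a difference that a change of scale hardly touches by construction. Leaving out 1 library did move this difference, from -0.0896 without R848 replicate 3 to -0.0416 without combined replicate 2. Leaving out combined replicate 3, the deepest library, took the count from 8 to 2. It was 4 without combined replicate 1 and 5 without combined replicate 2 or R848 replicate 2. DESeq2 called 3. Of all tested genes, 1349 were lower without combined replicate 3, 1539 without combined replicate 1 and 1491 without combined replicate 2. The all-gene count was 1567 without R848 replicate 2 and 1275 with DESeq2.

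**Figure D4:**
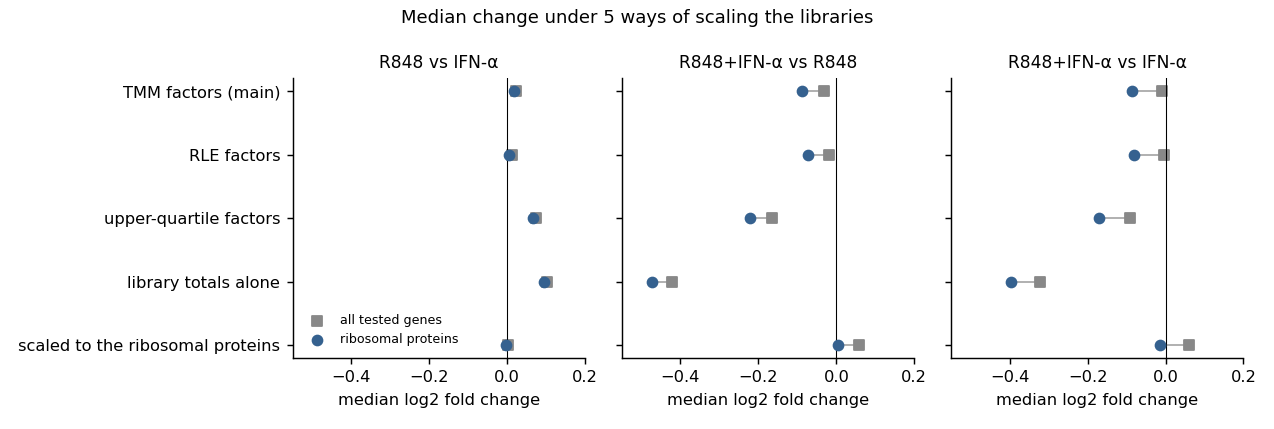
Median log2 fold change of the 75 ribosomal protein genes (circles) and of all 11002 tested genes (squares) under 5 ways of scaling the libraries, in the 3 comparisons. Both medians shift together, down to -0.47 and -0.42 for the combined group against R848 with library totals alone. A change of scale moves all genes nearly alike, so by construction it hardly alters the gap between the medians.

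Adding R848 to IFN-α was read from the combined group against IFN-α. Here 2 of 75 genes were higher and 2 lower (5.33%), beside 33.2% of all genes (18.5% higher, 14.7% lower), with medians of -0.085 and -0.0088. Each of the 4 was on the large subunit or acts in making it, and on the small subunit 0 of 32 passed, with 2 at an unadjusted p under 0.05 and 0 called by DESeq2. Other settings did call small-subunit genes lower here: Rps28 with the replicate block or without IFN-α replicate 2, Rps15 with a minimum count of 30, and both genes with only the 2 groups compared or without R848 replicate 1. Upper-quartile factors called 6 and library totals alone 23. Rpl24 was again above the IFN-α libraries, at 258, 237 and 247 CPM, for a change of 0.33 ± 0.091 (adjusted p = 0.00536). That call was lost with library totals alone (0.0185, adjusted p = 0.921) and held in the other 19 alternatives. Rpl7l1 passed narrowly at 0.28 ± 0.11 (adjusted p = 0.0486) and failed in 14 of 20 alternatives, including the omission of any 1 library other than R848 replicate 1. This comparison and that of R848 with IFN-α share their IFN-α libraries, so the repeat of Rpl24 and Rpl7l1 is not independent.

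Rpl13a, known in interferon-γ-treated monocytes for leaving the ribosome to silence inflammatory messages, was lower in the combined group than under either agent. It stood at 224, 239 and 225 CPM in the combined libraries, below all R848 libraries (269, 278 and 263) and all IFN-α libraries (276, 255 and 295). Against IFN-α the log2 fold change was -0.27 ± 0.088 (adjusted p = 0.0197), and 5 of 20 alternatives lost it, namely scaling to the ribosomal proteins and leaving out IFN-α replicate 1 or 3 or combined replicate 1 or 3 (adjusted p up to 0.125). The gene lies at chr7:45125558-45128761, minus strand, and 98.4% of its coding stretches are its own. The count of lower ribosomal protein genes was 2 with TMM or RLE factors, 17 with upper-quartile factors, 52 with library totals alone and 0 when scaled to the ribosomal proteins. It was 7 without R848 replicate 1, 1 without R848 replicate 2, IFN-α replicate 1, combined replicate 1 or combined replicate 2, and 0 without IFN-α replicate 3 or combined replicate 3. Of all 11002 genes, TMM factors called 1617 lower, RLE factors 1594 and upper-quartile factors 2091. Library totals alone called 3768 of them lower, and the scale of the ribosomal proteins 1278. The all-gene count was 1931 without R848 replicate 1 and 1275 without combined replicate 3.

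Rpl5 and Rpl11, which with the 5S RNA can bind Mdm2 and so stabilise p53, were not called after TMM scaling, nor was Rps6. Rpl11 stood at 277, 282 and 270.4 CPM under R848, 276, 272 and 304 under IFN-α and 279, 278 and 296 under both, with overlap throughout, and its 95% interval for the combined group against R848 ran from -0.13 to 0.22. With library totals alone that change was -0.35. Rpl5 stood at 318, 417 and 376 CPM under R848, at 372, 375 and 411 under IFN-α and at 352, 356 and 359 under both, and the widely spread R848 libraries overlapped the others. Rps6, the substrate of the S6 kinases, stood at 241, 223 and 214 CPM under R848, at 203, 189 and 236 under IFN-α and at 216, 212 and 214 under both, with overlap. Its 95% intervals ran from -0.084 to 0.30 (R848 against IFN-α), -0.27 to 0.11 (combined against R848) and -0.16 to 0.22 (combined against IFN-α). Rpl5, Rpl11 and Rps6 have no coding stretch of read length that is their own, so their levels are uncertain.

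Rpl3, beside the peptidyl transferase centre, stood at 429, 441 and 437 CPM under R848, 396, 383 and 389 under IFN-α and 428, 419 and 433 under both, with the IFN-α libraries below all others. The log2 fold change of R848 against IFN-α was 0.16 ± 0.079 and did not pass (adjusted p = 0.114). Rps14 and Rps19, whose loss is tied to failures of red cell production, and Rps27a, made as a fusion with ubiquitin, had no call in the main fit. For R848 against IFN-α their log2 fold changes were -0.22 ± 0.098, 0.092 ± 0.094 and 0.11 ± 0.13. Rps14 was called lower there without R848 replicate 1 or IFN-α replicate 2. With library totals alone, Rps14, Rps19 and Rps27a were called lower in the combined group than under R848. Among the paralogs, Rpl22l1 stood at 23.9 ± 1.302, 20.1 ± 2.07 and 23.7 ± 5.14 CPM (SD, n = 3) beside Rpl22 at 126 ± 13.3, 127 ± 4.32 and 116 ± 3.25, and the p53-inducible Rps27l at 61.1 ± 11.5, 72.3 ± 4.33 and 61.4 ± 3.74. None of these paralogs passed in any comparison of the main fit. Rps27l was called lower for R848 against IFN-α without R848 replicate 2, and in the combined group against each agent with library totals alone. Rpl41, highest per kilobase, changed by -0.076 ± 0.10, 0.050 ± 0.10 and -0.026 ± 0.10 in the order in which the comparisons were given.

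The ribosomal proteins whose names fall outside the pattern had no calls in the main fit. This list, with Rplp0, Rplp1 and Rplp2 of the stalk and Rpsa among its genes, had 0 of 7 called in each comparison with edgeR and with DESeq2 (1, 1 and 0 at an unadjusted p under 0.05). Rplp0 stood at 754, 688 and 679 CPM under R848, 619, 613 and 656 under IFN-α and 614, 612 and 659 under both. The medians of the list were 0.049, -0.074 and -0.044, and with library totals alone 7 and 5 of them were lower in the combined group than under R848 and IFN-α. Elongation factors and other 5′ TOP genes were mixed, with 4 of 18 higher and 0 lower for R848 against IFN-α, 1 and 5 for the combined group against R848, and 2 and 3 for it against IFN-α. The shares of all genes higher and lower were 18.4% and 19.0%, 19.2% and 16.7%, and 18.5% and 14.7% in these comparisons. The elongation factor genes Eef1a1 and Eef2 had no call in the main fit, with -0.017 ± 0.076 and 0.025 ± 0.081 for R848 against IFN-α. Upper-quartile factors and library totals alone called both for the combined group against R848. Eif3l and Eef1g were higher under R848 than under IFN-α (0.41 ± 0.12, adjusted p = 0.00538, and 0.30 ± 0.087, adjusted p = 0.006401). Eif4b, an initiation factor with a TOP message, was lower in the combined group than under either agent, with log2 fold changes of -0.50 ± 0.098 against R848 and -0.46 ± 0.099 against IFN-α (adjusted p = 0.000153 and 0.000433).

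Genes that make ribosomes were called in number in the first 2 comparisons. The list of ribosome biogenesis genes covers polymerase I factors, processing factors and assembly factors. For R848 against IFN-α, 25 of its 50 tested genes were higher and 3 lower, with a median of 0.43. For the combined group against R848, 4 were higher and 28 lower, with a median of -0.45. For the combined group against IFN-α, 2 were higher and 2 lower, with a median of 0.034. Of all genes, 18.4% were higher and 19.0% lower in the first comparison, 19.2% and 16.7% in the second, and 18.5% and 14.7% in the third. The first 2 comparisons share their R848 libraries. The direction of the first 2 medians was kept in all 20 alternatives (0.41 to 0.51, and -0.84 to -0.36), and that of the third was not (-0.28 to 0.099). Wdr12, which acts with Pes1 on the large subunit, stood at 13.4 ± 4.89 CPM (SD, n = 3) under R848, 5.24 ± 0.972 under IFN-α and 4.84 ± 2.38 under both. Its changes were 1.34 ± 0.31 (adjusted p = 0.000875) and -1.40 ± 0.31 (adjusted p = 0.000522) in the first 2 comparisons. Rrs1, needed to bring the 5S particle into the ribosome, was higher under R848 than IFN-α by 1.19 ± 0.31 (adjusted p = 0.00226).

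For R848 against IFN-α, Noc4l and Tcof1 went against the median of the list. Noc4l, a small-subunit factor, stood at 19.8 ± 0.901 CPM under R848, 50.1 ± 4.94 under IFN-α and 39.8 ± 1.97 under both, for a log2 fold change of R848 against IFN-α of -1.33 ± 0.14 (adjusted p = 5.19e-09). Tcof1, the treacle protein of ribosomal DNA transcription, was also lower under R848 (-1.10 ± 0.22, adjusted p = 0.000141). Sbds and Eif6, which act at the last step that frees the large subunit for use, were higher in the combined group than under IFN-α by 1.66 ± 0.13 and 0.79 ± 0.11 (adjusted p = 1.69e-11 and 8.56e-07). Sbds rose from 39.1 ± 8.596 to 124 ± 14.6 CPM. The nucleolar protein gene Npm1 stood at 256, 376 and 358 CPM under R848, 234, 256 and 249 under IFN-α and 275, 255 and 242 under both. It was higher under R848 than under IFN-α by 0.42 ± 0.11 (adjusted p = 0.00224), and lower under both than under R848 (-0.36 ± 0.11, adjusted p = 0.009202), the second lost without R848 replicate 2 or 3 or combined replicate 3. Ncl was lower in the combined group than under R848 (-0.44 ± 0.17, adjusted p = 0.0494), a call lost in 12 of 20 alternatives, among them the omission of R848 replicate 2 or 3, any 1 IFN-α library, or combined replicate 1 or 3. Fbl had no call in the main fit, and with library totals alone it was called for the combined group against each agent. Myc, a transcription factor known to drive ribosome production, was higher under R848 than IFN-α by 0.65 ± 0.18 (adjusted p = 0.00343).

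**Figure D5:**
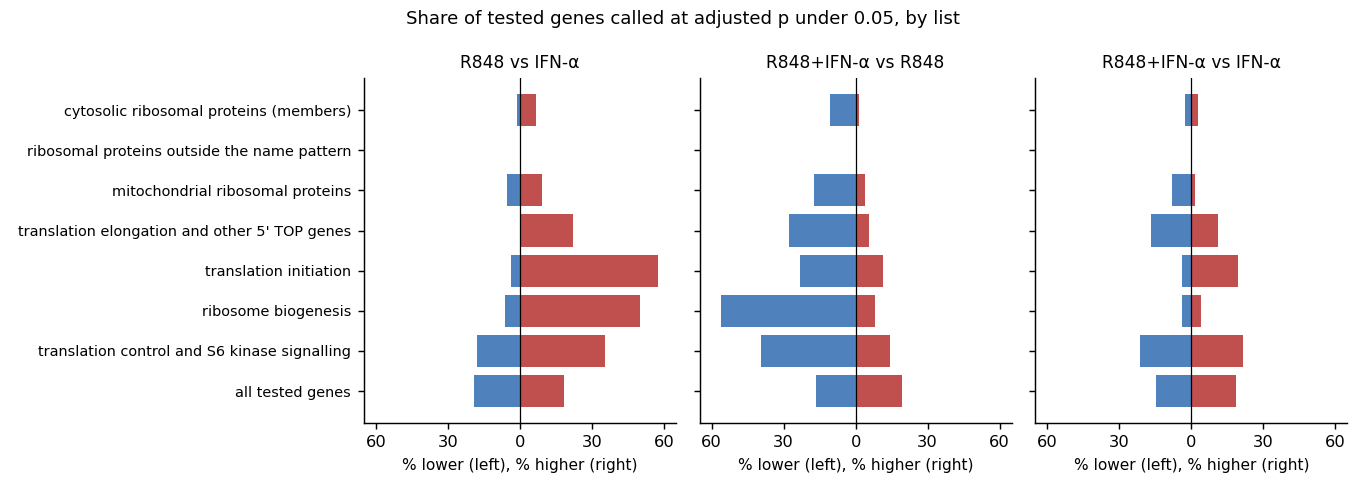
Share of tested genes called higher (right, red) and lower (left, blue) at adjusted p under 0.05, in % of each list, for the 75 cytosolic ribosomal protein genes, 6 other lists and all 11002 tested genes, in the 3 comparisons. Bars of the ribosomal proteins are short in each panel, while ribosome biogenesis reaches 25 higher of 50 for R848 against IFN-α and 28 lower of 50 for the combined group against R848.

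Initiation factors had 15 of 26 higher and 1 lower for R848 against IFN-α, 3 and 6 for the combined group against R848, and 5 and 1 for it against IFN-α. Without IFN-α replicate 1 the first count was 8. For all genes, the shares higher and lower were 18.4% and 19.0%, 19.2% and 16.7%, and 18.5% and 14.7% in the 3 comparisons. Eif4g2, which supports cap-independent initiation, stood at 2633 ± 307 CPM under R848, 1037 ± 92.4 under IFN-α and 2224 ± 78.2 under both, and both R848-containing groups exceeded IFN-α (1.34 ± 0.089 and 1.10 ± 0.088, adjusted p = 8.38e-14 and 1.49e-11). Among 28 genes of translation control and S6 kinase signalling, 10 were higher and 5 lower for R848 against IFN-α, 4 and 11 for the combined group against R848, and 6 and 6 for it against IFN-α. Eif2ak2, the gene of the double-stranded-RNA sensor PKR and a classic interferon target, stood at 8.103, 10.1 and 7.41 CPM under R848, 131, 103 and 107 under IFN-α and 101, 120.1 and 106 under both. Eif4ebp1, whose product blocks cap binding, was higher under R848 than IFN-α by 1.5 ± 0.15 (adjusted p = 1.65e-09) and lower under both than under R848 (-1.42 ± 0.15, adjusted p = 4.35e-09). Larp1, which binds the 5′ TOP tract, stood at 455 ± 42 CPM in the combined group and 211 ± 20.7 under R848, a change of 1.11 ± 0.093 (adjusted p = 2.99e-11).

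Mitochondrial ribosomal proteins, which serve the separate ribosome of that organelle, were also tested in 75 genes. Of these, 7 were higher and 4 lower for R848 against IFN-α, 3 and 13 for the combined group against R848, and 1 and 6 for it against IFN-α. Beside this list and those that follow, all genes had 18.4% higher and 19.0% lower, 19.2% and 16.7%, and 18.5% and 14.7%. Mrpl52 stood at 61.5 ± 2.11 CPM under R848, 26.3 ± 4.29 under IFN-α and 64.5 ± 4.47 under both (1.22 ± 0.14 and 1.28 ± 0.14 against IFN-α, adjusted p = 1.40e-08 and 9.67e-09). Of 8 genes of the p53 axis that free ribosomal proteins can act on, 2 were higher and 3 lower, 3 higher and 1 lower, and 4 higher and 2 lower in the 3 comparisons in turn. Mdm2, the ligase bound by Rpl5 and Rpl11, stood at 165 ± 4.03 CPM under both, 71.4 ± 3.799 under R848 and 72.2 ± 6.52 under IFN-α, and Cdkn1a at 452 ± 22, 115 ± 19.9 and 157 ± 5.31. Of 12 genes of ribosome-associated quality control, 5 were higher and 2 lower, 2 and 2, and 3 and 0. Abce1, the ribosome recycling factor, was lower in the combined group than under R848 (-0.64 ± 0.10, adjusted p = 7.88e-06). Of 7 host genes of small nucleolar RNAs, 1 was higher for R848 against IFN-α, 3 were lower for the combined group against R848 and 0 were called against IFN-α (0 at an unadjusted p under 0.05, and 0 by DESeq2). The 5′ TOP host gene Gas5 had no call in the main fit. Without R848 replicate 1 it was called for R848 against IFN-α and for the combined group against R848. Library totals alone also called it for the combined group against R848.

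Across the 9 libraries the ribosomal protein genes were weakly correlated with each other. The median Pearson correlation between pairs of the 75 genes was 0.20, on log2 CPM. The genes outside the set whose levels most resembled the mean of the set were Wdr5b (r = 0.973), Ccdc181 (0.959), Polr2i (0.951), Casc5 (0.947) and Clns1a (0.917). These are descriptions over 9 libraries that share their treatments and depth, and they were picked as the highest among all tested genes.

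Markers of other cell types were detected beside those of microglia, and several sums moved with the groups. Summed levels of 18 microglial markers ran from 3644 to 3938 CPM under R848, 5834 to 6328 under IFN-α and 4073 to 4481 under both, and none was at 0 in all libraries. Among the 16 tested, R848 against IFN-α called 1 up and 10 down. The combined group had 7 up and 4 down against R848, and 1 up and 11 down against IFN-α. Summed levels of 11 astrocyte markers ran from 1476 to 1745, 1187 to 1496 and 2432 to 3481 CPM. Of these, 10 of 11 were called higher in the combined group than under R848 (3 to 10 over the alternative settings), beside 19.2% of all genes. Against IFN-α the combined group had 6 up and 0 down, beside 18.5% and 14.7% of all genes. R848 against IFN-α had 2 up and 4 down, beside 18.4% and 19.0%. The median marker there changed by -0.34 on the log2 scale, although the astrocyte sums ran higher under R848. That sum therefore does not stand for the list as a whole. Sums of 10 oligodendrocyte-lineage markers were 498.5 to 531, 642 to 757 and 559.8 to 606 CPM, and those of 11 fibroblast and pericyte markers 317 to 451, 274 to 298 and 344 to 502. Sums of 9 endothelial markers, with Emcn at 0, were 17.4 to 21.1, 51.2 to 66.6 and 39.7 to 55.9 CPM. Those of 8 neuronal markers were 138 to 155, 142 to 177 and 161 to 175 CPM. Of 14 listed markers of other leukocytes, 13 had a row in the counts. The sums of these, with S100a9, Cd3g, Cd8a, Cd79a and Nkg7 at 0, were 47.7 to 63.9, 101 to 112 and 50.5 to 58.6 CPM. The part of other cell types in the ribosomal protein results was not tested. Gene counts per library ran from 2505941 to 6005578, and combined replicate 3 was the deepest.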

How the data were processed

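RNA of 9 microglia libraries was depleted of ribosomal RNA and sequenced as 101-base pairs from a strand-specific kit, per the labels' protocols. The deposited values are raw counts per gene in the layout of STAR, and the submitters' processing notes name CASAVA 1.8.2, Trimmomatic 0.33, STAR 2.5.1, DESeq2 and build mm10. The gene annotation was not given in these sources. Reverse-strand counts were used, the summary rows for unassigned reads (multimapping reads 7.22% to 8.51%) were left out, and multimapping reads are not in the gene counts.

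All 9 libraries were fitted together with edgeR 4.0.16 (limma 3.58.1, R 4.3.3): filterByExpr with a minimum count of 10 and a minimum total of 15, TMM factors, robust quasi-likelihood tests and Benjamini-Hochberg adjustment over 11002 genes at 0.05. Standard errors are the log2 fold change over the square root of F, so they are approximate, and CPM values are scaled with TMM factors. The fit was tested on simulated data with known changes. Alternatives, 20 in all, cover scaling, filters, DESeq2 1.42.0, unstranded counts, the replicate block and each library left out. The exact permutation tests of the share, the mean level and the subunit ratio were added after the data were seen.

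The genes and lists were chosen with earlier results of these data known. Named are, per comparison, up to 12 called ribosomal protein genes in each direction with the largest change, 13 given whatever they show, up to 4 called genes of each other list, 10 fixed genes, and the 5 genes most correlated with the mean of the set. Of the names this rule allows, the text describes a part, and a few genes are not reported here. Gene coordinates and coding stretches are from GENCODE release 21 (GRCm38), and start sites from RefSeq (GRCm38.p6).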

Additional observations from a re-analysis of the deposited data

Results flagged for a closer look

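Reads on the strand opposite to the ribosomal protein genes, in a column that the comparisons do not use, made up 0.385% of the reads on both strands over the 9 libraries (1844 counts), beside 1.29% for all genes. Rpl5 had 96 such counts, Rpl11 had 70 and Rpl3 had 68.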

How the results depend on the processing

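Scaling moved the counts most. With upper-quartile factors, 0 genes were higher and 36 lower in the combined group than under R848 (median -0.22), 1 and 17 than under IFN-α (median -0.17), and 36 were called across the 3 groups. Of all 11002 genes, 1715 were higher and 2861 lower against R848 on that scale, and 1697 and 2091 against IFN-α. With library totals alone, R848 against IFN-α gave 3 higher and 0 lower (median 0.094), the combined group 0 and 67 against R848 (median -0.47) and 0 and 52 against IFN-α (median -0.40), and 69 were called across the groups. For all genes these 3 comparisons gave 2211 higher and 1761 lower, 1173 and 4984, and 1044 and 3768. With that scale several log2 fold changes turned their sign. In the combined group against R848 these were Rps24 (-0.14), Rpl11 (-0.35), Rpl41 (-0.34), Rps14 (-0.36), Rps27l (-0.38), Mdm4 (-0.048) and Rplp2 (-0.38), and against IFN-α Rpl7l1 (-0.038) and Rpl11 (-0.31). Scaled to the ribosomal proteins, 2 were higher in R848 against IFN-α, 1 was lower against R848 (median 0.0054), 0 were lower against IFN-α (median -0.014) and 3 were called across the groups. This scale is set on these same genes, so the low counts are partly built in. Of all genes it called 1859 higher in R848 against IFN-α, and in the combined group 1287 lower against R848 and 1278 against IFN-α. The test across the 3 groups called 50.3% of all genes with TMM factors. Its all-gene counts on the other scales are not given, so its counts there cannot be read as particular to the ribosomal proteins.

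For R848 against IFN-α the count of higher genes was 3 with RLE factors, without Rn45s or with the replicate block, and 2 with no filter, DESeq2 or only the 2 groups compared. Of all genes, these settings called from 1636 (DESeq2) to 2036 (replicate block) higher. For the combined group against R848, DESeq2 gave 3 lower, and only the 2 groups compared gave 0 higher. Against IFN-α, 1 was higher without Rn45s, with no filter, with DESeq2 or with unstranded counts, and 1 was lower with no filter or DESeq2 and 6 with only the 2 groups compared. The all-gene counts lower were 1567 with no filter, 1201 with DESeq2 and 1834 with only the 2 groups compared. Replicate numbers did not pair the libraries (correlations of same-numbered deviations -0.096 to 0.053, and 2 of 9 libraries best with their own number), and the replicate block gave 1 higher and 8 lower against R848 and 2 higher and 3 lower against IFN-α.

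Leaving out 1 library gave 2 to 5 higher and 1 to 3 lower for R848 against IFN-α, 0 to 1 higher and 2 to 8 lower for the combined group against R848, 1 to 2 higher and 0 to 7 lower against IFN-α, and 4 to 12 called across the groups (4 without combined replicate 3). For all genes the ranges were 1731 to 2035 higher and 1880 to 2218 lower for R848 against IFN-α. They were 1864 to 2244 and 1349 to 1826 for the combined group against R848, and 1734 to 2290 and 1275 to 1931 against IFN-α. No all-gene range is given for the test across the groups. With Rn45s kept in the total, the share of gene counts was 1.90% for R848, 1.78% for IFN-α and 1.38% for both. The causes of these shifts were not tested.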
